A study of Homo sapiens with 16 samples.

Results

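The 9 proteolysis genes followed here were the matrix metalloproteinases MMP1, MMP3, MMP9 and MMP10, the plasminogen activators PLAU and PLAT, the urokinase receptor PLAUR, and the inhibitors TFPI2 and TIMP1. They were found by symbol among the probe sets annotated to a single gene, which gave 26 probe sets of the 44988 single-gene probe sets on the array. PLAT had 7 of them, PLAUR had 5, PLAU, TFPI2 and TIMP1 had 3 each, MMP1 had 2, and MMP3, MMP9 and MMP10 had 1 each. MMP1, MMP3 and MMP10 lie on chromosome 11, MMP9 on 20, PLAU on 10, PLAUR on 19, PLAT on 8, TFPI2 on 7 and TIMP1 on X. The cells were HEK293, a human embryonic kidney line, which had received a plasmid carrying the mineralocorticoid receptor gene NR3C2 by transient transfection (500 ng per well, 24 h) before 4 h of treatment. The treatments were DOC plus PMA, PMA at 10 nM, DOC at 100 nM, and vehicle, with 4 arrays each, labelled as biological replicates. DOC is a steroid agonist of the mineralocorticoid receptor, and PMA is a phorbol ester, an activator of protein kinase C. All 4 groups carried the receptor plasmid. Cells without the plasmid were not analysed here, so DOC effects acting through this receptor and through others cannot be told apart.

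Plasminogen activators cut plasminogen into plasmin, a protease that dissolves fibrin and can also activate latent metalloproteinases. Metalloproteinases degrade collagens, proteoglycans and other matrix proteins, and the TIMP family blocks their active site. Several of these genes are textbook targets of phorbol esters through the transcription factor AP-1, whose binding site is known as the TPA response element.

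Because AP-1 is a known regulator of several of these genes, the 250 bases before the transcription start were searched in the RefSeq promoter table (build GRCh38.p14). Bases further upstream were not searched. The table held windows for 5 of the 9 genes, 6 windows in all. MMP1, MMP3 and MMP9 had no entry, and PLAT was not searched. The 3 windows that hold a match to the AP-1 letters TGANTCA are printed 5′ to 3′ on the gene's strand, with the match in capitals, followed by the TIMP1 window, which holds none. The windows are chr7:93890754-93891003 on the minus strand for TFPI2, chr11:102780629-102780878 on the minus strand for MMP10, chr19:43670170-43670419 on the minus strand for PLAUR, and chrX:47582186-47582435 on the plus strand for TIMP1.
TFPI2: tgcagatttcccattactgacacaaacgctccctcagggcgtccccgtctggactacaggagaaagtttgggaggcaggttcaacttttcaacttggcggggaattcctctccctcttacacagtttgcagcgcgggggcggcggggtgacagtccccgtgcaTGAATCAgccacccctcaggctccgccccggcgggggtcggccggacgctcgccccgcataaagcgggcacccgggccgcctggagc
MMP10: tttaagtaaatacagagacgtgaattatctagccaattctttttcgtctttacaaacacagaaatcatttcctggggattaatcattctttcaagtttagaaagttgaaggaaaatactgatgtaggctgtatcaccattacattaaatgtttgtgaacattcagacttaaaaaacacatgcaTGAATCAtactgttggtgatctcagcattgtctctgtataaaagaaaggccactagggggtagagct
PLAUR: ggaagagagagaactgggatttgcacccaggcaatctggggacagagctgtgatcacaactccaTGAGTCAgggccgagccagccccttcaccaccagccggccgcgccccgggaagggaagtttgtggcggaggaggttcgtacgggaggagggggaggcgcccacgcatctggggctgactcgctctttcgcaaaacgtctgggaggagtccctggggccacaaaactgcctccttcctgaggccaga
TIMP1: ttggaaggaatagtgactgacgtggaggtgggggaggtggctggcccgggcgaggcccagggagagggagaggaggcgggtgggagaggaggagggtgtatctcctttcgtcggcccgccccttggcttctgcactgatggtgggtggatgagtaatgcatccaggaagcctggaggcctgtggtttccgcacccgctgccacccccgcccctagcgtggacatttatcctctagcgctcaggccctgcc

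TFPI2 and MMP10 carried the same 7 letters, TGAATCA, 87 to 81 and 67 to 61 bases before the start, and PLAUR carried TGAGTCA 186 to 180 bases before it. TGANTCA, which reads the same on both strands apart from its middle base, occurred in 2308 of 35116 windows of that length (6.57%), and TGAGTCA on either strand in 1476 (4.2%). Neither PLAU window held TGANTCA, and a site further upstream would not be seen. None of the 6 windows held the cyclic AMP response element TGACGTCA (1.65% of all windows) or the steroid receptor motif AGAACA (12.4%), searched on both strands. A match describes letters only and is not a measured site, and a missing match says only that these letters are not in this window. The search let only the middle base vary. The TIMP1 window holds the near match tgagtaa, which was not counted, so the window is not shown to lack an AP-1 site.

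Signals are deposited log2 RMA values, on which a difference of 1 is a doubling. One probe set per gene, the one with the highest mean signal among those passing a filter on low signal, entered a limma fit of 12495 genes, with Benjamini-Hochberg adjustment over all of them. A gene is said to rise or fall where the adjusted p was under 0.05. Of the 9 genes, 6 were in that fit. MMP1, MMP3 and MMP9 stayed below the filter, and MMP10 passed it only through the arrays with PMA. A second fit of all 44988 single-gene probe sets without a filter gave values for all 26. Signals were compared between groups within a probe set only, and fewer expressing cells cannot be told apart from less RNA per cell. Where groups are said to lie apart or not to overlap, the share of all probe sets that do so was not counted.

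The arrays were alike in scale, with medians of 4.91 to 4.96 and within-group Pearson correlations of 0.991 to 0.997. Deviations from the group means correlated at 0.425 to 0.554 among 3 arrays, replicate 2 of DOC plus PMA, replicate 2 of PMA and replicate 1 of DOC. Values that change without these 3 arrays are given beside the results they touch or in the closing section on processing. In the cells, 6 of 7 listed HEK293 genes lay above the array median on all 16 arrays, and PAX2, a kidney transcription factor, did so on 3. NR3C2 is among the 6, but the plasmid carried it, so its signal does not describe the cell type. Sums over a list were taken on the linear scale and then put on the log2 scale, so the brightest genes weigh most. In this list the brightest was VIM, at 12.53 to 12.92. The log2 sum was 13.53 to 13.63 in DOC plus PMA and 13.4 to 13.7 in PMA. It was 13.21 to 13.3 in DOC and 13.15 to 13.4 in vehicle. All 5 fibroblast markers lay below the median throughout. Their log2 sum was 5.70 to 5.89 in DOC plus PMA and 5.74 to 6.01 in PMA. It was 5.58 to 5.86 in DOC and 5.76 to 5.95 in vehicle. The summed leukocyte markers were at 6.26 to 6.48 in DOC plus PMA and 6.27 to 6.41 in PMA, against 6.00 to 6.12 in DOC and 5.95 to 6.20 in vehicle. The sums thus moved with PMA, but the 5 genes did not all do so. ITGAM averaged 2.58 in PMA against 2.68 in vehicle, and 2.54 in DOC plus PMA against 2.62 in DOC. PTPRC was at 2.27 against 2.18 and at 2.09 against 2.18 in the same order, and CD14 at 3.20 against 3.13 and 3.64 against 2.98. Of the 5, only CORO1A and CD68 were in the gene-level fit. Both rose for PMA against vehicle, beside 17.7% of all genes higher. CORO1A had a mean of 5.01 in PMA against 4.61 in vehicle, and CD68 of 4.80 in PMA against 4.37 in vehicle. For DOC plus PMA against DOC 1 of the 2 rose, beside 15.7% of all genes higher. PTPRC, the defining leukocyte phosphatase, lay between 1.95 and 2.45, below the 20th percentile of 2.73 to 2.82. The summed endothelial markers were at 6.91 to 7.04 in DOC plus PMA, 6.92 to 7.04 in PMA, 6.96 to 6.99 in DOC and 6.79 to 6.95 in vehicle, with 4 of the 5 in the fit. Of these, 3 rose and 1 fell for PMA against vehicle, beside 47.0% of all genes called. None was called for DOC plus PMA against DOC, beside 42.6% of all genes. EGFL7 lay above the array median on all 16 arrays, and CDH5, the endothelial cadherin, did not pass the filter. Their part in the results was not tested.

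PMA was followed by higher signal for 8 of the 9 genes, with and without DOC. MMP10 and TFPI2 gained far more than the others, PLAU, PLAUR and PLAT gained 2.29- to 4.42-fold, TIMP1 gained less than 2-fold, and MMP1 and MMP3 gained within a range close to the array floor. MMP9 was not called. The comparison of PMA with vehicle asks what the phorbol ester did without added steroid, and that of DOC plus PMA with DOC asks it in the presence of the steroid. These 2 comparisons share no arrays. Among all genes, 47.0% were called in PMA against vehicle and 42.6% in DOC plus PMA against DOC. Calls ran to both sides: 17.7% were higher and 29.3% lower without DOC, and 15.7% higher and 26.9% lower with it. RMA fixes a common distribution, and with each array shifted to a common median the split was 3418 higher and 2748 lower genes in place of 2206 and 3663 without DOC, and 2789 and 2563 in place of 1958 and 3365 with it. The 6 members in the gene-level fit rose in both comparisons under that scaling too. At the probe-set level, 22 of the 26 rose and none fell for PMA against vehicle, beside 26.0% called among all single-gene probe sets, 10.8% higher. For DOC plus PMA against DOC, 23 rose and none fell, beside 22.6% called, 9.64% higher.

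**Figure D1:**
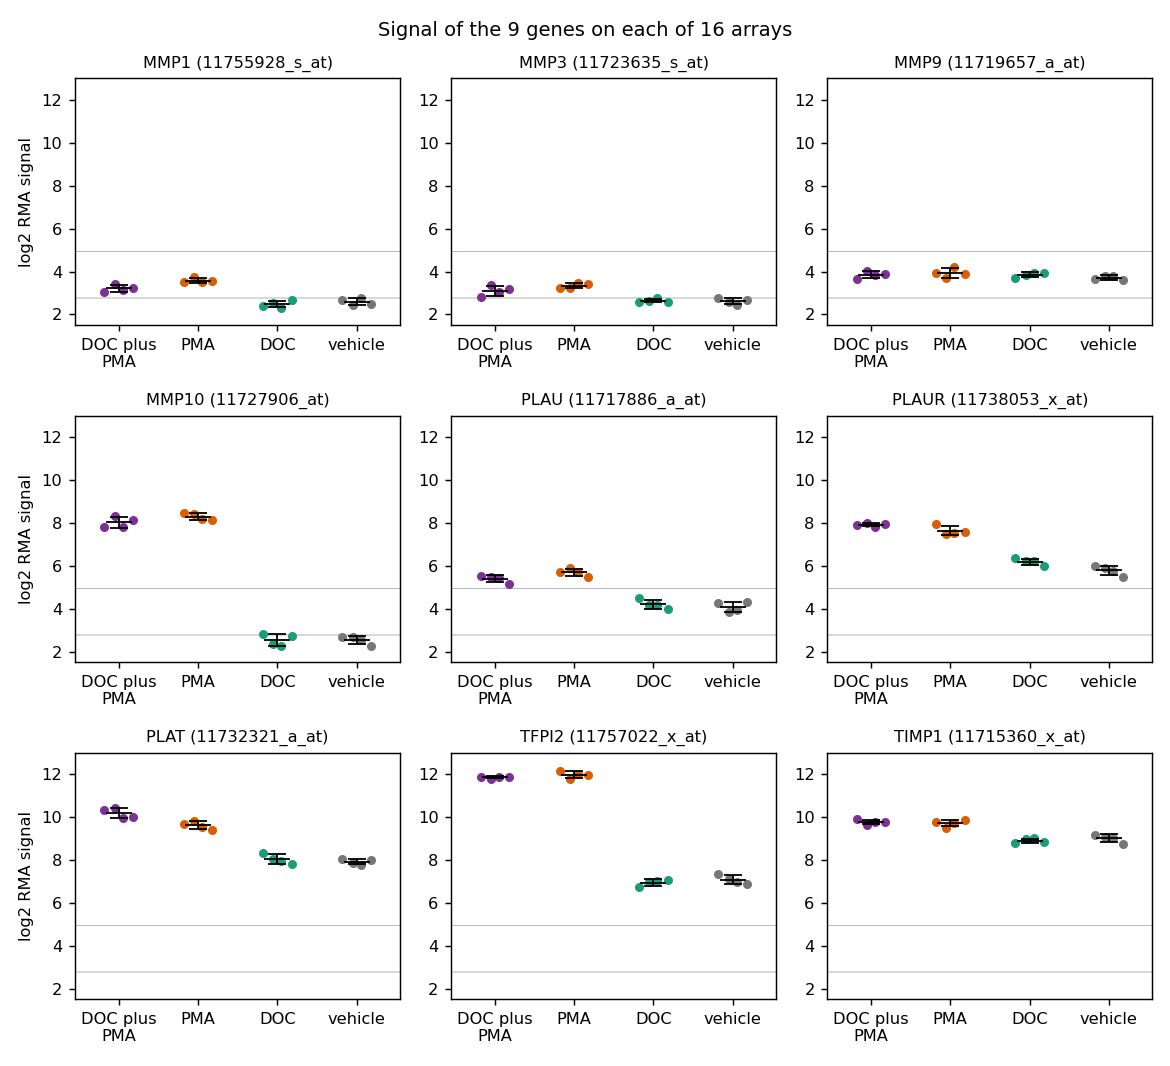
Log2 RMA signal (y axis) of 1 probe set for each of the 9 genes on each of the 16 arrays, by group from DOC plus PMA at the left to vehicle at the right. Points are arrays, bars are mean ± SD of 4 arrays, and the shaded bands mark the range over arrays of the 20th percentile (2.73 to 2.82) and of the array median (4.91 to 4.96). MMP10 lies at 7.79 to 8.45 with PMA and at 2.26 to 2.80 without it.

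MMP10, stromelysin 2, degrades proteoglycans and can activate other metalloproteinases. Its signal was 8.45, 8.42, 8.19 and 8.11 on the PMA arrays, against 2.67, 2.70, 2.53 and 2.26 on the vehicle arrays. With DOC it was 7.79, 8.34, 7.80 and 8.15 on the DOC plus PMA arrays, against 2.80, 2.33, 2.27 and 2.73 on the DOC arrays. The 8 arrays with PMA thus held it at percentiles 80.6 to 86.6 of all probe sets, and the 8 without PMA at percentiles 8.70 to 20.3, at the floor of the array. The log2 difference was 5.75 ± 0.14 (SE) for PMA against vehicle (53.9-fold, adjusted p = 1.02e-15, limma) and 5.49 ± 0.14 for DOC plus PMA against DOC (44.9-fold, adjusted p = 2.54e-15). Because the arrays without PMA are at the floor, the size of this fold rests on where the floor lies. MMP10 was higher on 4 of 4 arrays in each comparison.

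MMP1, interstitial collagenase, cuts fibrillar collagen. Its brighter probe set gave 3.50, 3.73, 3.50 and 3.56 in PMA, against 2.69, 2.42, 2.76 and 2.49 in vehicle. With DOC it gave 3.05, 3.43, 3.16 and 3.25 in DOC plus PMA, against 2.39, 2.52, 2.32 and 2.65 in DOC. All 8 arrays without PMA lay below the 20th percentile of their array, and those with PMA lay at percentiles 25.2 to 35.2. In the fit of all single-gene probe sets it rose by 0.98 ± 0.10 (adjusted p = 6.02e-07, limma) without DOC and by 0.75 ± 0.10 (adjusted p = 1.66e-05) with it, and its second probe set rose by 0.92 ± 0.11 and 0.75 ± 0.11. The groups did not overlap, but both sit at low percentiles of the array.

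MMP3, stromelysin 1, is a close relative of MMP10. Its single probe set gave 3.24, 3.24, 3.46 and 3.40 in PMA, against 2.76, 2.60, 2.43 and 2.68 in vehicle, a rise of 0.72 ± 0.10 (adjusted p = 3.29e-05, limma). With DOC it gave 2.81, 3.36, 3.06 and 3.19 in DOC plus PMA, against 2.60, 2.64, 2.75 and 2.59 in DOC, a rise of 0.46 ± 0.10 (adjusted p = 0.00264). This probe set carries a suffix for probes that can match several transcripts, and MMP10 moved in the same direction by far more on the same arrays. A share of MMP10 transcript in the MMP3 signal was not tested.

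MMP9, the gelatinase B that phorbol esters are known to induce in several cell types, showed no separation of groups. It gave 3.93, 3.68, 4.20 and 3.90 in PMA, against 3.65, 3.80, 3.80 and 3.60 in vehicle. It gave 3.63, 4.03, 3.84 and 3.87 in DOC plus PMA, against 3.69, 3.86, 3.93 and 3.91 in DOC. The differences were 0.22 (95% interval −0.00 to 0.44, adjusted p = 0.150, limma) and −0.00 (−0.22 to 0.22, adjusted p = 0.988). Its signal stayed between percentiles 34.2 and 41.5 over all groups.

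**Figure D2:**
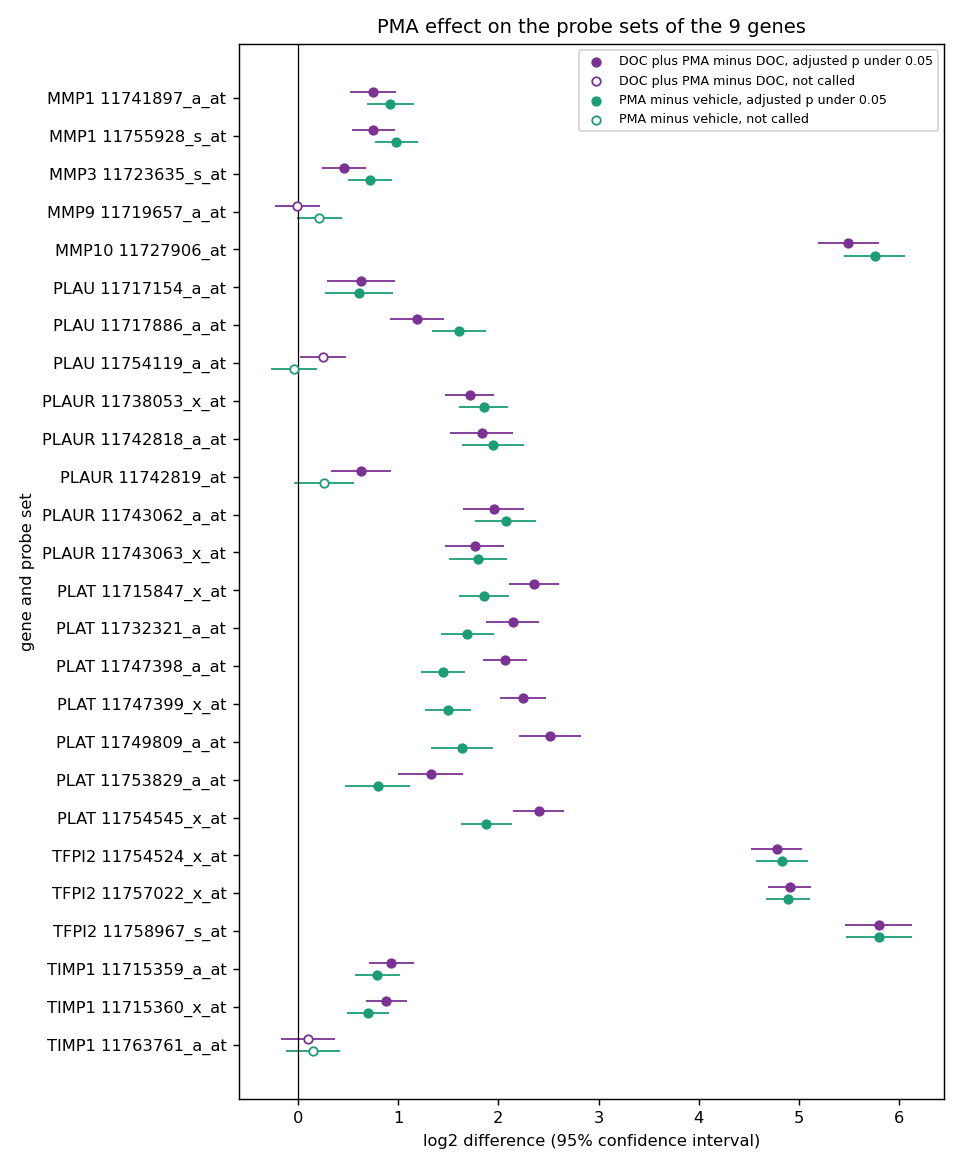
Log2 difference with its 95% confidence interval (x axis) for each of the 26 probe sets (y axis), for DOC plus PMA against DOC and for PMA against vehicle. Filled points have an adjusted p under 0.05. TFPI2 and MMP10 lie at 4.78 to 5.80, while MMP9 lies at −0.00 and 0.22.

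PLAU, urokinase, activates plasminogen at the cell surface when bound to PLAUR. Its signal was 5.73, 5.89, 5.70 and 5.49 in PMA, against 4.28, 3.86, 3.91 and 4.30 in vehicle. In the presence of DOC it was 5.50, 5.48, 5.43 and 5.14 in DOC plus PMA, against 4.51, 4.16, 4.15 and 3.97 in DOC. The arrays with PMA thus lay above the array median and those without it below, and PLAU rose by 1.61 ± 0.13 (3.05-fold, adjusted p = 1.12e-08, limma) without DOC and by 1.19 ± 0.13 (2.29-fold, adjusted p = 5.83e-07) with it. Its other 2 probe sets were dim. One of them rose by 0.61 and 0.63, and the other differed by −0.04 and 0.25, neither called.

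PLAUR, the urokinase receptor, was at 7.96, 7.50, 7.51 and 7.57 in PMA, against 6.00, 5.89, 5.75 and 5.47 in vehicle. It was at 7.92, 7.98, 7.81 and 7.93 in DOC plus PMA, against 6.34, 6.23, 6.20 and 6.00 in DOC. The groups with and without PMA were apart, and PLAUR rose by 1.86 ± 0.11 (3.62-fold, adjusted p = 4.16e-10, limma) without DOC and by 1.72 ± 0.11 (3.29-fold, adjusted p = 1.36e-09) with it. Of its 5 probe sets, 4 rose by 1.80 to 2.07 and by 1.72 to 1.95. The fifth was not called without DOC (0.26) and rose by 0.63 with it.

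PLAT, tissue plasminogen activator, works mainly on fibrin-bound plasminogen. Its brightest probe set was at 9.69, 9.83, 9.53 and 9.41 in PMA, against 8.05, 7.88, 7.77 and 8.00 in vehicle. It was at 10.32, 10.41, 9.95 and 10.00 in DOC plus PMA, against 8.34, 8.03, 7.94 and 7.81 in DOC. Every array with PMA exceeded every array without it on all 7 probe sets. PLAT rose by 1.69 ± 0.12 (3.22-fold, adjusted p = 4.82e-09, limma) without DOC and by 2.14 ± 0.12 (4.42-fold, adjusted p = 2.18e-10) with it, and the 7 probe sets ranged from 0.79 to 1.88 and from 1.33 to 2.52.

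TFPI2, tissue factor pathway inhibitor 2, is a matrix-bound Kunitz inhibitor of plasmin and several metalloproteinases. It was at 12.15, 11.76, 11.99 and 11.96 in PMA, against 7.33, 7.13, 6.96 and 6.88 in vehicle. It was at 11.89, 11.79, 11.88 and 11.86 in DOC plus PMA, against 6.73, 6.97, 7.03 and 7.05 in DOC. On this probe set it thus stood at percentiles 99.2 to 99.5 with PMA and at percentiles 69.2 to 75.8 without it. TFPI2 rose by 4.89 ± 0.10 (29.7-fold, adjusted p = 6.31e-17, limma) and by 4.91 ± 0.10 (30.0-fold, adjusted p = 5.95e-17), and its 3 probe sets ranged from 4.78 to 5.80 over both comparisons. The upper end comes from probe set 11758967_s_at, which without PMA lay close to the floor, at 2.59 to 3.39.

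TIMP1, an inhibitor of most metalloproteinases, was already bright without PMA. It was at 9.78, 9.51, 9.71 and 9.87 in PMA, against 9.18, 9.08, 9.04 and 8.76 in vehicle, a rise of 0.70 ± 0.09 (1.62-fold, adjusted p = 8.43e-06, limma). It was at 9.90, 9.65, 9.78 and 9.78 in DOC plus PMA, against 8.78, 8.95, 9.01 and 8.84 in DOC, a rise of 0.88 ± 0.09 (1.85-fold, adjusted p = 6.20e-07). The groups did not overlap. A second bright probe set rose by 0.79 and 0.93, and the third, dim one was not called, at 0.15 and 0.10.

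Against vehicle, which the earlier comparison of PMA also uses, DOC plus PMA raised all 6 genes of the gene-level fit, beside 43.8% of all genes called, 17.5% higher. MMP10 entered that fit only through arrays with PMA. The log2 differences were 5.48 for MMP10, 1.30 for PLAU, 2.13 for PLAUR, 2.25 for PLAT, 4.78 for TFPI2 and 0.76 for TIMP1. For PLAUR and PLAT the order of the groups was DOC plus PMA, PMA, DOC, vehicle from high to low. For MMP10, PLAU and TFPI2 the mean of PMA lay above that of DOC plus PMA. For TIMP1 the means of DOC plus PMA and PMA differed by 0.06 and those of DOC and vehicle by −0.12. The comparisons for DOC that follow test these steps.

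DOC alone called none of the 9 genes. The comparison asks what the steroid did without the phorbol ester, and it uses the vehicle arrays of the comparison of PMA with vehicle again. In it 0.120% of all genes were called, 15 genes, all higher (386 at an unadjusted p under 0.05). None of the 26 probe sets was called, beside 0.0467% of all single-gene probe sets. The differences were −0.01 (95% interval −0.31 to 0.30) for MMP10, 0.11 (−0.16 to 0.37) for PLAU, 0.10 (−0.16 to 0.37) for PLAT, −0.13 (−0.34 to 0.08) for TFPI2 and −0.12 (−0.32 to 0.08) for TIMP1. PLAUR gave 0.42 ± 0.11 (0.18 to 0.66), and its 4 DOC arrays, at 6.00 to 6.34, lay above its 4 vehicle arrays, at 5.47 to 6.00, but the adjusted p was 0.519 (limma). The gap was narrow, from 5.996 in the highest vehicle array to 6.004 in the lowest DOC array. On 3 of the 5 PLAUR probe sets the DOC arrays all lay above the vehicle arrays, while PLAUR probe set 11742819_at gave −0.19. The share of all probe sets apart in this way was not counted.

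**Figure D3:**
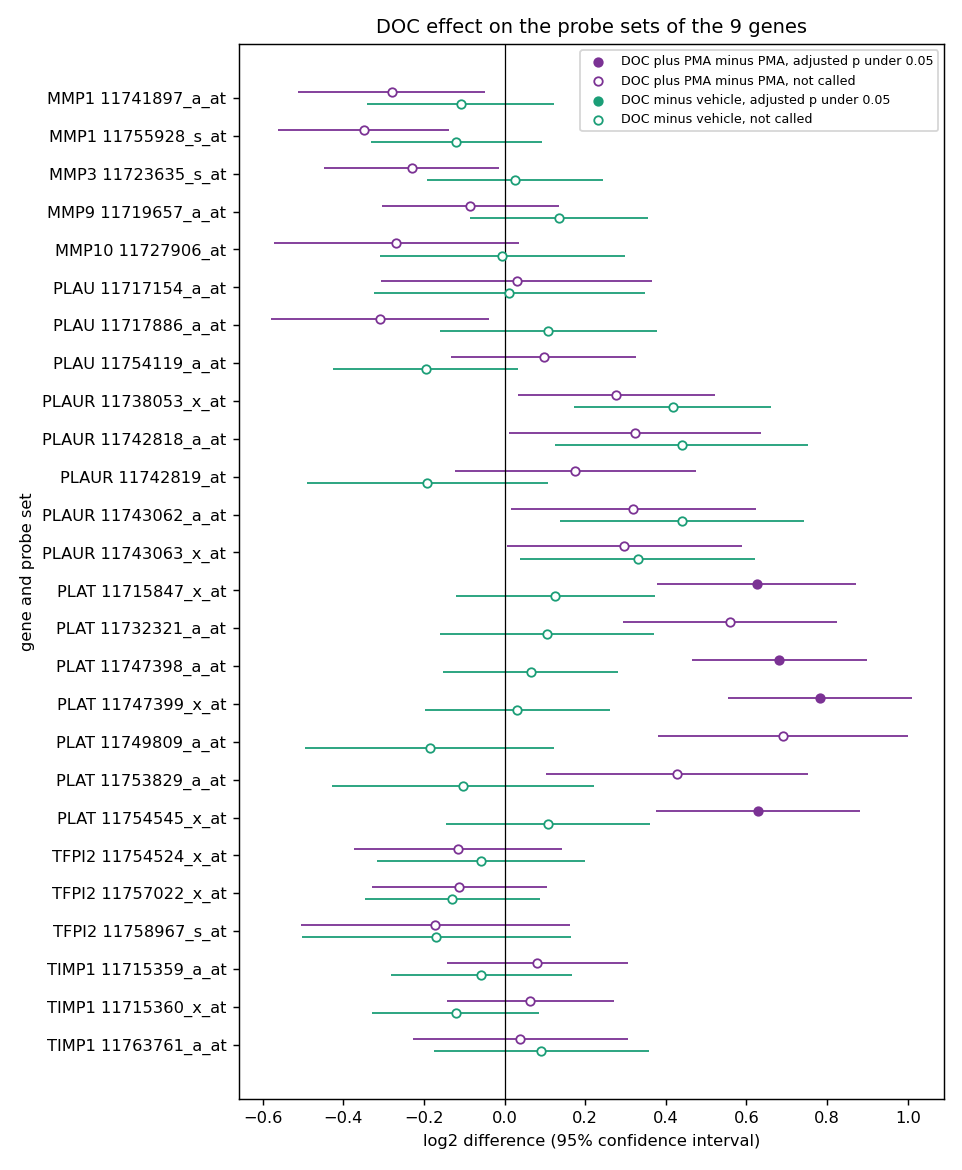
Log2 difference with its 95% confidence interval (x axis) for each of the 26 probe sets (y axis), comparing DOC plus PMA with PMA, and DOC with vehicle. Filled points have an adjusted p under 0.05. The 7 PLAT probe sets lie at 0.43 to 0.78 with PMA and at −0.19 to 0.13 without it.

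With PMA present, mean PLAT signal was higher with DOC, but PLAT was not called in the gene-level fit. Whether it was called depended on the probe set, their summary, array weights, the block and the arrays used. The comparison of DOC plus PMA with PMA uses the PMA arrays again, so it is not independent of the comparison of PMA with vehicle. Of all genes 0.384% were called, 45 higher and 3 lower, and none of the 6 members was among them. PLAT came closest, with its brightest probe set at 9.95 to 10.41 in DOC plus PMA and at 9.41 to 9.83 in PMA, 4 of 4 arrays above all PMA arrays. The difference was 0.56 ± 0.12 (1.47-fold, 95% interval 0.30 to 0.82), with an adjusted p of 0.0660 (limma). With the replicate number as a block the adjusted p was 0.00737 over all 16 arrays and 0.00542 in the 8 arrays of the 2 groups. The labels do not give this pairing. It was taken from these same arrays, so the 2 p-values rest on an assumed pairing. Over all 16 arrays the block also joins groups such as PMA and vehicle, where deviations correlated above 0.1 in 1 of 4 pairs. With the mean of the gene's probe sets the difference was 0.63 with an adjusted p of 0.000134. Without the 3 arrays that deviated together it was 0.55 (adjusted p = 0.0478). With single arrays left out the adjusted p lay between 0.0298 and 0.256.

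Among single-gene probe sets 0.133% were called in this comparison, 0.124% higher, and 4 of the 26 were, all of them PLAT. The 4 became 2 without the 3 arrays that deviated together, and also 2 without vehicle replicate 1 or 2, PMA replicate 1, 3 or 4, DOC replicate 2 or 4, or DOC plus PMA replicate 1, 2 or 4. On probe set 11747399_x_at the signal was 8.95, 8.92, 8.67 and 8.85 in DOC plus PMA, against 8.24, 7.70, 8.22 and 8.10 in PMA. On probe set 11747398_a_at it was 8.73, 8.77, 8.72 and 8.54 in DOC plus PMA, against 8.14, 7.70, 8.14 and 8.06 in PMA. In both, every DOC plus PMA array stood above every PMA array, by 0.78 ± 0.11 (adjusted p = 0.00163, limma) and 0.68 ± 0.10 (adjusted p = 0.00391) on average. Probe sets 11715847_x_at (0.63 ± 0.12, adjusted p = 0.0373) and 11754545_x_at (0.63 ± 0.12, adjusted p = 0.0441) were called close to the threshold. The remaining 3 gave 0.69 (adjusted p = 0.101), 0.56 (0.150) and 0.43 (1.00). The groups were apart on 6 of the 7. How often this holds among all single-gene probe sets was not counted, so the number is a description only. The probe sets share a transcript and the same arrays and so are not replicates of each other.

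**Figure D4:**
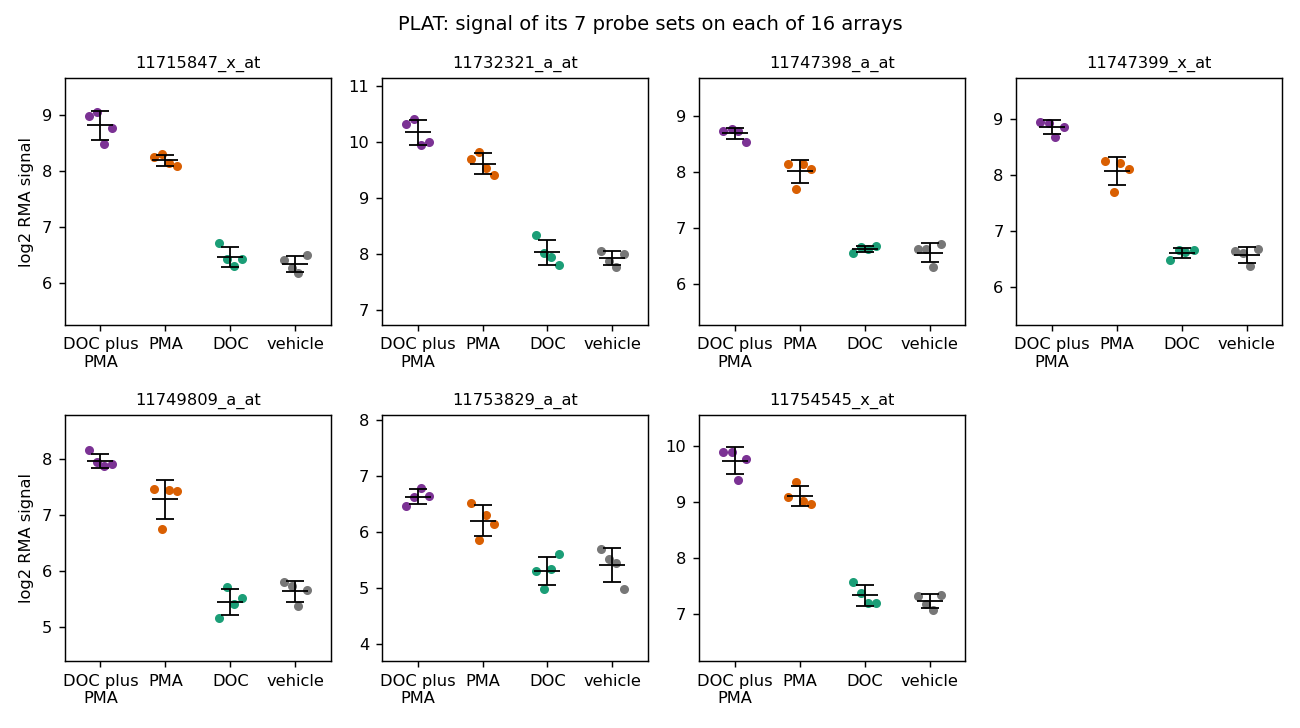
Log2 RMA signal (y axis) of the 7 PLAT probe sets on each of the 16 arrays, by group from DOC plus PMA at the left to vehicle at the right. Points are arrays and bars are mean ± SD of 4 arrays. The DOC plus PMA arrays lie above all PMA arrays on 6 of the 7, while the DOC and vehicle arrays overlap on all 7. How many of all probe sets lie apart was not counted.

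The difference between the DOC effect with PMA and that without it, the interaction, was 0.45 ± 0.18 for PLAT in the gene-level fit (unadjusted p = 0.0191, adjusted p = 1.00, limma). It ranged from 0.45 to 0.88 over the 7 probe sets, with none called, beside 0.0880% of all genes and 0.0156% of all single-gene probe sets called. With the mean of the probe sets it was 0.61 (adjusted p = 0.0361). Of the alternatives run, that summary alone passed the threshold. For the other members the interaction lay between −0.42 for PLAU (unadjusted p = 0.0313, adjusted p = 1.00) and 0.18 for TIMP1, with none called.

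The other members gave no call for DOC in the presence of PMA. PLAUR gave 0.28 (95% interval 0.04 to 0.52), with 3 PMA arrays at 7.50 to 7.57 and replicate 1 at 7.96. TIMP1 gave 0.06 (−0.13 to 0.26) and TFPI2 −0.11 (−0.32 to 0.10). MMP10 gave −0.27 (−0.57 to 0.03) and PLAU −0.31 (−0.58 to −0.04, adjusted p = 0.996, limma), with 3 of the 4 DOC plus PMA arrays of PLAU below all PMA arrays. Of the dim genes, MMP1 gave −0.35 (−0.56 to −0.14, adjusted p = 0.594), with all 4 DOC plus PMA arrays below all 4 PMA arrays on its brighter probe set, and MMP3 gave −0.23 (−0.45 to −0.01, adjusted p = 1.00). On the second MMP1 probe set, at −0.28, the 2 groups overlapped. How many of all probe sets lie apart in this way was not counted, so these positions are a description only. The other 2 PLAU probe sets gave 0.03 and 0.10.

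The DOC effect averaged over both PMA conditions called 0.432% of all genes and none of the 6 members. PLAUR gave 0.35 ± 0.08 (adjusted p = 0.0816, limma) and PLAT 0.33 ± 0.09 (adjusted p = 0.190), and the other 4 lay between −0.14 and −0.03. With the replicate number as a block both were called, PLAUR at an adjusted p of 0.0169 and PLAT at 0.0254. These calls rest on the same assumed pairing, which the labels do not give. Array weights, which use no pairing, also called both (adjusted p of 0.0266 for PLAUR and 0.0378 for PLAT). With the mean of probe sets PLAT alone was called (adjusted p = 0.00456). When single arrays were left out, the adjusted p of PLAT lay between 0.0951 and 0.415. PLAUR was also called without vehicle replicate 1 (0.38, adjusted p = 0.0442) and without PMA replicate 1 (0.40, adjusted p = 0.0128). At the probe-set level 2 PLAT probe sets were called, at 0.41 ± 0.08 (adjusted p = 0.0335) and 0.37 ± 0.07 (adjusted p = 0.0418), beside 0.178% of all single-gene probe sets called, 0.169% higher.

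A further 50 genes of extracellular proteolysis were listed to place the 9 among their relatives. Of these, 36 were in the gene-level fit, 12 were too dim, and the others were not analysed here. For PMA against vehicle 16 rose, 5 fell and 15 were not called, beside 17.7% higher and 29.3% lower among all genes, with a median log2 difference of 0.16 against −0.04 over all genes. For DOC plus PMA against DOC 11 rose, 2 fell and 23 were not called, beside 15.7% higher and 26.9% lower among all genes, with a median of 0.12 against −0.05. The counts with DOC depended on the scaling and weighting: 18 rose and 2 fell with a common median, and 15 rose and 6 fell with array weights. These medians are far below the values of MMP10 and TFPI2.

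F3, tissue factor, the cell-surface trigger of coagulation, gained most of the 36. It averaged 11.18 ± 0.23 in DOC plus PMA, 10.57 ± 0.24 in PMA, 6.85 ± 0.31 in DOC and 6.24 ± 0.13 in vehicle (SD, n = 4 each). It rose by 4.33 ± 0.15 without DOC (20.1-fold, adjusted p = 8.69e-14, limma) and by 4.33 ± 0.15 with it. F3 was the 1 gene of the 36 called for the averaged DOC effect, at 0.61 ± 0.10 (adjusted p = 0.00588). Its DOC difference was 0.61 with PMA (adjusted p = 0.104) and 0.61 without it (adjusted p = 0.261). Without the 3 arrays that deviated together the difference with PMA was 0.67 (adjusted p = 0.0168). With single arrays left out its adjusted p lay between 0.0298 and 0.394.

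Among proteases, MMP13, a collagenase, rose by 1.54 ± 0.20 without DOC and by 1.39 ± 0.20 with it, and ADAMTS1, an aggrecan-cleaving protease, by 1.08 ± 0.07 and 1.20 ± 0.07. CTSB, a lysosomal cysteine protease, rose by 0.58 and 0.48. HPSE, heparanase, which is listed here but is not a protease, rose by 0.75 and 0.51. MMP15, a membrane-type metalloproteinase, rose by 0.56 and 0.48. ADAMTS5, another aggrecanase, fell by 1.16 ± 0.18 and by 1.24 ± 0.18. Among inhibitors, TFPI, which blocks the tissue factor complex, rose by 1.37 ± 0.13 and 1.20 ± 0.13, and TIMP3, a matrix-bound metalloproteinase inhibitor, by 1.26 ± 0.11 and 1.11 ± 0.11. RECK, a membrane-anchored inhibitor of metalloproteinases, fell by 0.64 ± 0.12 and by 0.75 ± 0.12. ANXA2, a surface receptor for plasminogen and PLAT, rose by 0.35 and 0.58. The other 3 that fell for PMA against vehicle were PLGRKT, a plasminogen receptor, by 0.43, and the proteases ADAMTS9, by 0.40, and ADAM10, by 0.37. They fall outside the rule for named genes and were chosen after their values were seen.

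**Figure D5:**
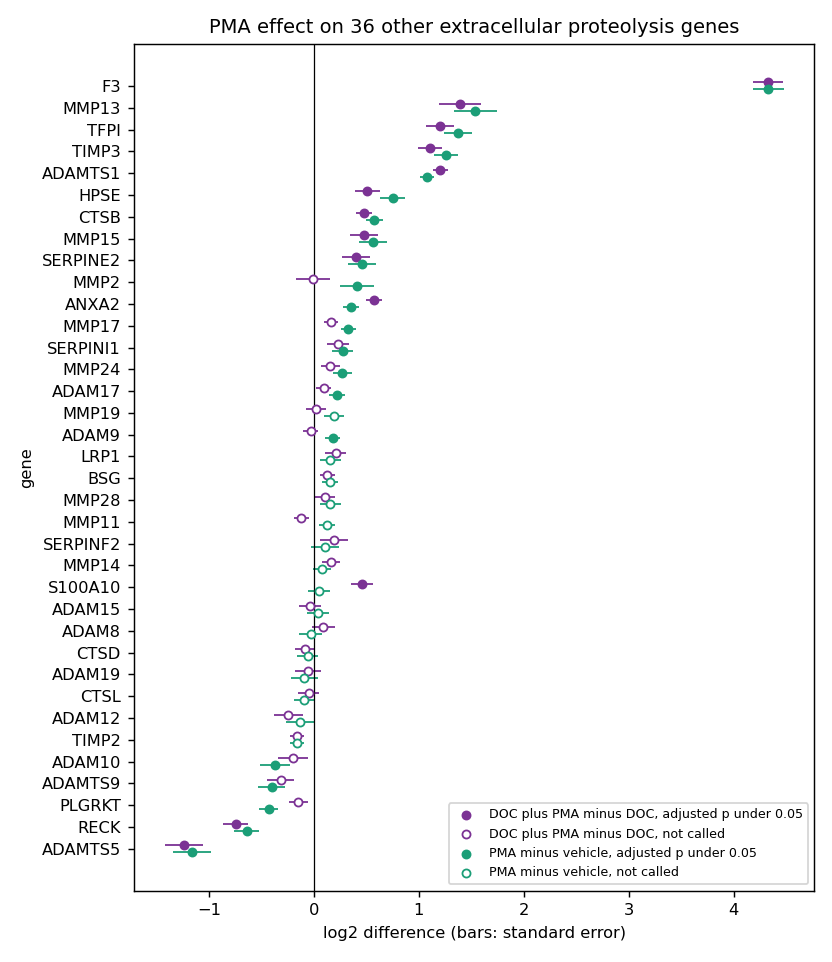
Log2 difference with its standard error (x axis) for the 36 listed proteolysis genes other than the members (y axis), for DOC plus PMA against DOC and for PMA against vehicle. Filled points have an adjusted p under 0.05. F3 lies at 4.33 in both comparisons, and ADAMTS5 at −1.24 and −1.16.

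Of 25 listed matrix proteins, which are substrates of these enzymes or carriers of their products, 20 were in the fit. For PMA against vehicle 8 rose and none fell, beside 47.0% of all genes called, 17.7% higher, with a median of 0.20. For DOC plus PMA against DOC 4 rose and none fell, beside 42.6% called, 15.7% higher, with a median of 0.16. The 4 became 7 with the mean of probe sets or array weights, 8 with cyclic loess and 10 with a common median, all higher. THBS1, thrombospondin 1, rose by 2.51 ± 0.19 and 2.36 ± 0.19, and TNC, tenascin C, by 1.12 ± 0.16 and 1.07 ± 0.16. LAMB3, a laminin chain, rose by 0.80 and 0.90, and COL4A1, a basement membrane collagen chain, by 0.55 and 0.41. HSPG2, COL4A2, LAMA1 and COL18A1 rose by 0.38, 0.32, 0.25 and 0.20 without DOC. COL4A2 lost the call without PMA replicate 2 (0.21, adjusted p = 0.115) or vehicle replicate 1 or 4 (0.0637 and 0.0639), and LAMA1 without vehicle replicate 2 (0.0553). COL18A1 lost it without the 3 arrays that deviated together (0.15, adjusted p = 0.0877), with the mean of probe sets (0.085, adjusted p = 0.299) and with array weights (0.15, adjusted p = 0.0683). Leaving out replicate 2 or 4 of PMA, or 1 or 4 of vehicle, ended its call as well (0.0654 to 0.0947). No listed matrix protein was called for DOC in either condition.

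The genes most like each member over the 16 arrays are given as a description, by Pearson correlation of log2 signal, which here follows mainly the contrast of arrays with and without PMA. MMP10 was closest to EGR3, an immediate early transcription factor (r = 0.998), and EPHA2, an ephrin receptor (0.998). TFPI2 was closest to SERTAD1 (0.998) and SDC4, a cell-surface proteoglycan (0.998). PLAU was closest to PEA15 (0.982) and LRIF1 (0.981), and TIMP1 to PNP (0.982) and KRT18, an epithelial keratin (0.981). PLAT and PLAUR shared F3 as the closest gene, at 0.987 and 0.983, followed by CDKN1A, a cell-cycle inhibitor (0.985), for PLAT and ITPRIP (0.982) for PLAUR. EGR3 was at 9.38 ± 0.19 in PMA against 2.93 ± 0.18 in vehicle (SD, n = 4 each). Its vehicle mean lay a little above the 20th percentile of 2.73 to 2.82, while that of MMP10, at 2.54, lay below it.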

How the data were processed

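The deposited values are log2 RMA signals made by the authors. Per the submitters' processing notes they used RMA and Affymetrix Expression Console (versions: not given in the sources used here). The method corrects background, gives all arrays a common distribution and summarises probes, so a change of all transcripts in 1 direction cannot be seen. Per the labels' protocols, biotin-labelled cRNA from 100 ng of total RNA was hybridised to the array. Its 49293 probe sets comprise 44988 with 1 gene, 1832 with several and 2473 without a name, and 44961 were matched to current symbols by gene identifier. Probe sets at or above the 40th percentile of their array in at least 4 of 16 arrays were kept (30613, of which 28226 had 1 gene). Per gene the kept single-gene probe set with the highest mean was used.

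Group means were fitted with limma 3.58.1 in R 4.3.3 (lmFit, eBayes, all 16 arrays, two-sided, Benjamini-Hochberg over 12495 genes, called under 0.05). A second fit took all single-gene probe sets unfiltered. The median standard error was 0.0879 for a difference of 2 groups and 0.124 for the interaction, so precision is limited by the number of arrays. The p-values measure the spread between arrays labelled as biological replicates. Replicate numbers were taken to pair PMA with DOC plus PMA from the data alone, since deviations correlated above 0.1 in 4 of 4 pairs (0.157 to 0.549). The labels do not say what a number shares, and the fit did not use it. Other pairs of groups had 1 to 3 of 4. The named genes are the 9 members, per list and comparison up to 10 called genes with the largest difference, and for each member the 2 most correlated genes. The members and lists were chosen with earlier results of these data known. Alternatives changed the scaling, filter, probe-set summary, array weights, block, arrays fitted and arrays left out.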

Additional observations from a re-analysis of the deposited data

Results flagged for a closer look

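The PLAUR signal of PMA replicate 1 stood apart from the other 3 PMA arrays. It was 7.9632, while the others lay between 7.5026 and 7.5656, a gap of 0.863 of the group's whole range, above Dixon's value at the 95% level for 4 samples. It was the 1 case in 36 groups of 4 arrays examined, and chance gives about 1 in 20. Without this array the averaged DOC effect on PLAUR was 0.40 with an adjusted p of 0.0128 (limma), in place of 0.35 and 0.0816. Its cause was not tested.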

How the results depend on the processing

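The number of members that rose with PMA, 6 of 6 in PMA against vehicle, DOC plus PMA against DOC and DOC plus PMA against vehicle, stayed at 6 in the alternatives run except 2: without a filter MMP1 and MMP3 made it 8, and with the filter at the 60th percentile it was 5 of 5, since PLAU did not pass that filter. MMP10 counts among the 6 only because arrays with PMA passed the filter, so the count is not independent of its rise. It also rose without a filter. DOC against vehicle stayed at 0. For DOC plus PMA against PMA, 0 members became 1, PLAT, with the mean of the probe sets, array weights, the replicate block over all 16 arrays, the block in the 8 arrays alone (added after seeing the data) and without the 3 arrays that deviated together. It was 0 to 1 when single arrays were left out, with the call made without PMA replicate 2, DOC replicate 1 or DOC plus PMA replicate 3 and PLAT's adjusted p between 0.0298 and 0.256. For the averaged DOC effect, 0 became 1 with the mean of probe sets, 2 with array weights and 2 with the replicate block, and 0 to 1 when single arrays were left out. The interaction, 0, became 1 with the mean of probe sets. The replicate block changed no other call of a member. PLAT probe sets called for DOC with PMA, 4 in all, were 2 without the 3 arrays and 2 to 4 when single arrays were left out. Some small differences turned sign: MMP10 for DOC against vehicle to 0.0375 and 0.0472 without vehicle replicates 1 and 2 and 0.0611 and 0.0826 without DOC replicates 2 and 3 (range −0.0984 to 0.0826 over single arrays left out), PLAT for DOC against vehicle to −6.32e-05 without DOC replicate 1 or the 3 arrays (highest 0.179), TIMP1 to 0.0157 for the averaged effect with the mean of probe sets and to −0.00662 with PMA without PMA replicate 2 (highest 0.115), and the TFPI2 interaction to −0.0144 (mean of probe sets), −0.0592 (array weights), −0.0998 (3 arrays) and, without vehicle replicates 1 and 2, PMA replicate 2 and DOC replicate 1, −0.0692, −0.00206, −0.0517 and −0.0543 (highest 0.0823). The cause was not tested.

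Array weights raised the genes called to 94 of the averaged DOC effect (54), 89 of DOC plus PMA against PMA (48) and 25 of the interaction (11). Without DOC plus PMA replicate 4 the second was 31, and single arrays left out gave 5 to 14 for the third. Of the proteolysis list, DOC plus PMA against DOC called 20 genes with a common median and 21 with array weights in place of 13, and of the matrix list 7 (mean of probe sets, array weights), 8 (cyclic loess) and 10 (common median) in place of 4. F3 was called for DOC with PMA under the mean of probe sets (adjusted p = 0.000262), array weights (0.00275), without the 3 arrays (0.0168), and without PMA replicate 2, DOC replicate 1 or DOC plus PMA replicate 3 (0.0298 to 0.0493). A fit of only the groups compared uses all arrays for the interaction and averaged effect, so it was not run for these. MMP1 and MMP3 are limited by signal close to the floor.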
